A study of Mus musculus with 9 samples.

Results

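The comparison of phenformin with conjugated linoleic acid (CLA) in adipocytes rested on 6 of the 9 arrays of the series, the 3 titled phenformin and the 3 titled CLA. All samples were 3T3-L1 cells, an established mouse preadipocyte line that is turned into fat cells in culture, so that 1 line stands for the adipocyte here. CLA dishes received conjugated linoleic acid and phenformin dishes received phenformin. The other 3 arrays came from cells given linoleic acid (LA), the control of the series, and entered here through the estimate of the spread and as a reference level without a test. The labels state no dose or duration, do not name the isomer of CLA, and leave unsaid whether phenformin was given together with a fatty acid, so the treatments are not known to be matched. The labels call the samples biological replicates without saying that they came from separate cultures, so p-values measure the spread between these samples, which may be technical.

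CLA is a group of linoleic acid isomers whose double bonds are conjugated. In fat cells it is known for loss of stored triglyceride and for an inflammatory response. Phenformin is a biguanide: it blocks complex I of the mitochondrial respiratory chain, and the fall in cellular energy switches on AMP-activated protein kinase (AMPK), which restrains the synthesis of fat and favours its oxidation. The series asked about AMPK and prostaglandins in the action of CLA, and this comparison shows which transcripts set a CLA-treated culture apart from one treated with the biguanide.

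Values are log2 expression values of Affymetrix probe sets, and the brightest probe set stood for its gene. Differences are phenformin minus CLA on the log2 scale, given ± SE, with an adjusted p from limma, and n = 3 arrays per group throughout. A gene was called where that p was under 0.05. Arrays correlated at 0.987 to 0.995 within the 2 groups and at 0.979 to 0.991 between them. The ranges overlapped: CLA replicate 3 correlated at 0.9908 with phenformin replicate 3, and at 0.9907 and 0.9867 with CLA replicates 1 and 2. The spiked hybridization controls averaged 11.07 to 12.71 on the CLA arrays and 10.56 to 11.51 on the phenformin arrays, while the 3' minus 5' difference of beta-actin, which grows as RNA is shortened, was 0.43 to 0.63 and 0.49 to 0.66. On the LA arrays the controls averaged less, 9.77 to 10.17, and the beta-actin difference was larger, 0.98 to 1.71. LA values are therefore a reference of unlike technical quality. The part of these technical differences in the results was not tested. Adipocyte markers were present: the adipokine gene Adipoq, the fatty acid carrier gene Fabp4 and the lipase gene Lpl lay between 14 and 14.6 on all 6 arrays, and the regulators Pparg and Cebpa between 10.78 and 11.77. The highest values of these arrays were 14.54 to 14.72. Adipoq, Fabp4 and Lpl thus lay near the top of the scale, where a difference may be understated. Members of the macrophage, endothelial and muscle lists had medians of 3.68 to 3.95, 3.44 to 3.82 and 4.17 to 4.54, with 7 of 12, 4 of 8 and 6 of 8 above background in either group. The preadipocyte list had medians of 6.74 to 7.07, with 12 of 13 members above background in either group, 1 called higher and 2 lower.

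Phenformin and CLA arrays differed at 1147 of 18193 genes (6.3%), of which 719 were higher in phenformin (3.95%) and 428 were lower (2.35%). After quantile normalization 630 genes were called higher and 640 lower. The shares of 3.95% and 2.35% are the reference for the counts of calls in the lists below, and a list with 1 or 2 calls may lie near them. The falls reached further than the rises. Phenformin arrays were lower by over 4 log2 units for the growth factor gene Ereg and the transcription factor gene Fosl1, while the largest rise, that of the RNA-binding protein gene Taf15, was 2.99 ± 0.20. A difference of at least 2-fold was called for 333 genes (1.83%), 173 higher (0.951%) and 160 lower (0.879%). In bulk RNA, fewer cells that express a gene and less of its RNA per cell cannot be told apart. The median difference over all genes was -0.032. For 14132 of the 15762 genes above background in either group (89.7%), the 95% interval lay within a 2-fold difference in both directions. Of these 14132 genes 364 were called, so a difference can be under 2-fold and still be called.

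**Figure D1:**
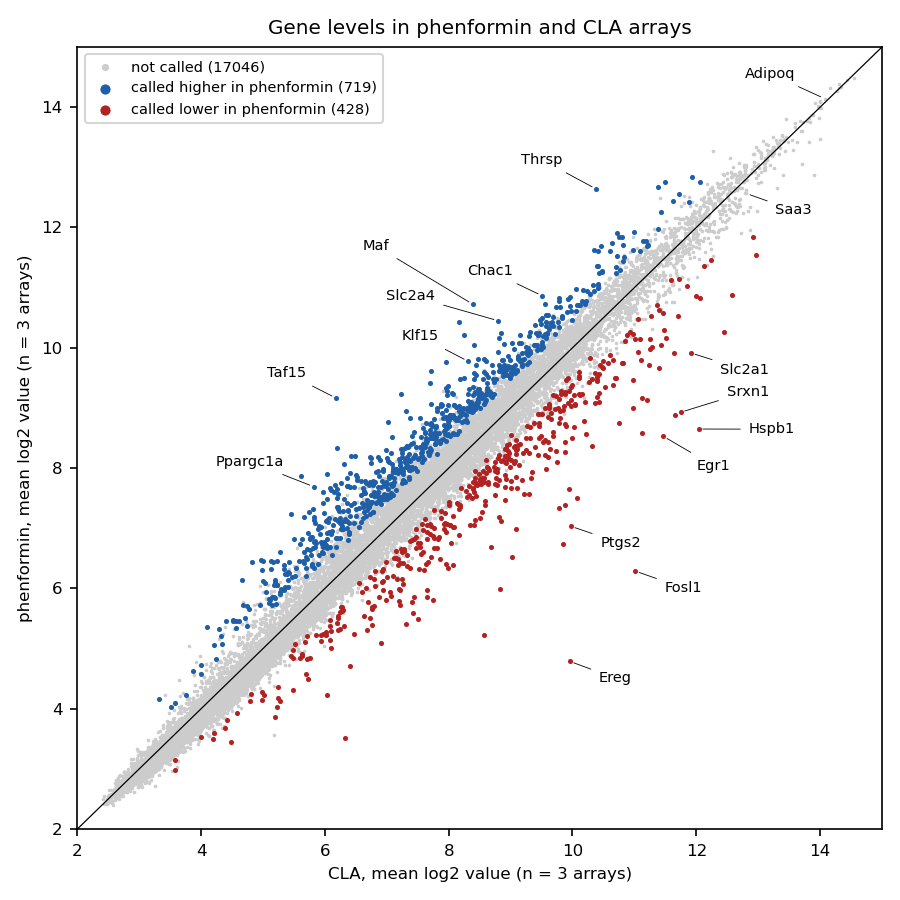
Mean log2 value of each of 18193 genes on the 3 phenformin arrays against its mean on the 3 CLA arrays, with genes called higher in phenformin in blue (719) and called lower in red (428). Red points stray farther from the diagonal of equal levels than blue ones, with Ereg and Fosl1 at the lower edge, while Adipoq and Saa3 lie close to the line.

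The number of genes called depended on single arrays. It was 512 and 550 without CLA replicates 1 and 2, 600, 463 and 725 without phenformin replicates 1, 2 and 3, and 1718 without LA replicate 3, whose values entered the spread only. Over probe sets, 2048 of 45037 were called (4.55%), 1292 higher in phenformin (2.87%) and 756 lower (1.68%). The higher share of these calls was 63.1%, and it was 52.4% once the arrays had been quantile normalized and 68.1% after median centring. Without phenformin replicate 2 it was 52.2% and without CLA replicate 1 it was 54.2%, so the balance of rises and falls moved with the scaling and with single arrays.

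Immediate early transcription factors, which are made within minutes of a growth or stress signal, formed the group that stood lowest in phenformin. Of the 21 measured members 13 were called lower and 0 higher, and 15 did not overlap between the groups, a state that held for 27.1% of all genes. Their median difference was -1.45. Fosl1, an AP-1 subunit that follows sustained MAP kinase signalling, lay at 10.83, 11.05 and 11.16 on the CLA arrays and at 5.95, 6.39 and 6.52 on the phenformin arrays. The groups were far apart, and the LA arrays, at 5.75, 5.77 and 5.83, lay below both. The difference was -4.73 ± 0.15, or 26.5-fold (adjusted p = 7.69e-07), and the second probe set gave -4.47.

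Egr1, a zinc finger factor induced by growth factors, fell from 11.41, 11.47 and 11.53 in CLA to 8.15, 8.60 and 8.84 in phenformin, a difference of -2.94 ± 0.17 (adjusted p = 1.61e-05). Its phenformin values overlapped with those of the LA arrays (8.35, 8.17 and 8.07). Ier3, a stress-induced survival gene, was at 10.93, 11.05 and 11.40 in CLA and at 8.09, 8.62 and 9.06 in phenformin. Here the phenformin arrays stayed above the LA arrays (6.53, 6.19 and 7.26), and the difference between the treatments was -2.54 ± 0.29 (adjusted p = 0.00111). Klf2, a Krüppel-like factor that restrains adipocyte differentiation, and Ier5, an early gene of the stress response, fell by similar amounts, with differences of -2.50 ± 0.14 and -2.44 ± 0.11 (adjusted p = 1.61e-05 and 3.15e-06), although Ier5 stood at -1.45 as the mean of its probe sets. The 8 members that were not called held the AP-1 subunit gene Fos at -0.05 ± 0.29, with a 95% interval of -0.69 to 0.59, and the nuclear receptor gene Nr4a1 at 0.19 ± 0.18, the only member of the list above 0. These 2 were picked after their values were seen.

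The list of epidermal growth factor ligands and MAP kinase feedback genes held 10 members called lower out of 17 measured and 0 called higher, with a median of -0.92. Ereg encodes epiregulin, a ligand of the epidermal growth factor receptor family. It lay at 9.98, 9.39 and 10.49 in CLA and at 4.71, 4.83 and 4.83 in phenformin, so that the lowest CLA array stood more than 4 log2 units above the highest phenformin array. The difference was -5.17 ± 0.22, or 36-fold (adjusted p = 2.5e-06), and no called gene fell further. LA arrays were lower still, at 4.17, 4.14 and 4.33.

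Dual-specificity phosphatases switch off MAP kinases and are themselves induced by them. Dusp5, a nuclear phosphatase of ERK, was at 8.69, 8.94 and 8.83 in CLA and 6.04, 6.04 and 5.89 in phenformin, a difference of -2.83 ± 0.13 (adjusted p = 2.71e-06). Dusp1 and Dusp6, which act on stress kinases and on cytoplasmic ERK, differed by -2.77 ± 0.25 and -2.50 ± 0.16 (adjusted p = 0.000292 and 4.33e-05). For Dusp6 the 3 groups were separate, with LA at 5.92, 5.63 and 5.94, phenformin at 7.27, 7.64 and 7.24 and CLA at 9.87, 10.12 and 9.66.

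Other large falls were of the same size. Sprr1a, a small proline-rich protein of stressed epithelium and nerve, fell from 8.46, 8.97 and 8.27 to 5.35, 4.82 and 5.53 (-3.33 ± 0.32, adjusted p = 0.000415). Clcf1, a cytokine of the interleukin 6 family, differed by -3.10 ± 0.12 (adjusted p = 1.4e-06), and all 3 of its probe sets were called lower. Hmga2, a chromatin protein of growing mesenchymal cells, had 10.09, 10.55 and 9.58 in CLA and 7.62, 7.58 and 7.29 in phenformin. Its difference was -2.58 ± 0.22 (adjusted p = 0.000245), with 2 of the 3 other probe sets called lower. The cyclin gene Ccnd1, which carries cells into the cell cycle, differed by -1.72 ± 0.15 (adjusted p = 0.000252), while over the 23 measured genes of the cell cycle and DNA replication 3 were called lower and 0 higher, with a median of -0.06. Without LA replicate 3 that count was 5, and it was 1 without CLA replicate 1 or 2 or any phenformin replicate.

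**Figure D2:**
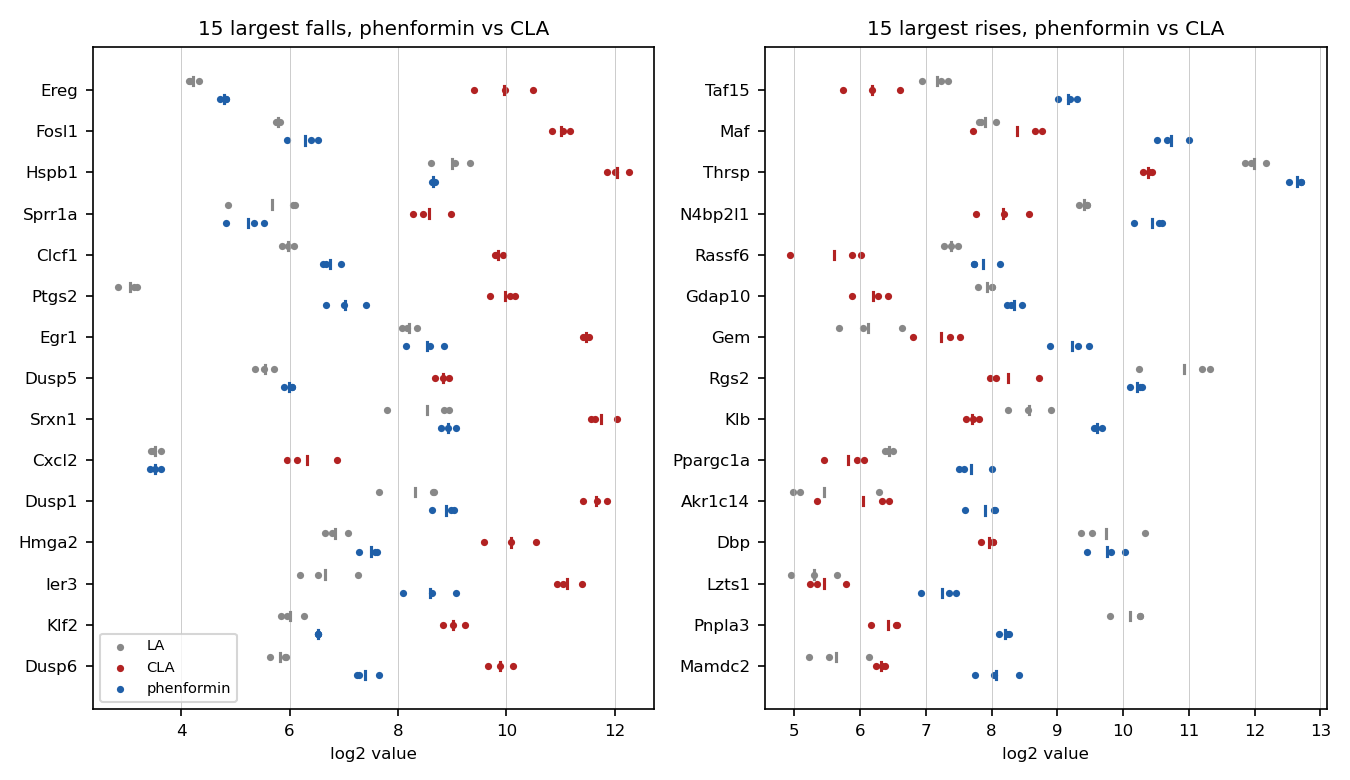
Log2 value on each array (points) and group mean (vertical ticks) for the 15 largest falls and 15 largest rises among genes called between phenformin (blue) and CLA (red), with LA (grey) as a reference. Red and blue points do not overlap in any row, and the rows where blue points overlap with grey ones include Hspb1, Sprr1a, Cxcl2 and Egr1.

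Cytosolic heat shock proteins were lower in phenformin. These chaperones refold or hold damaged proteins and are induced through heat shock elements in their promoters. Of 15 measured members 7 were called lower and 0 higher, and 14 did not overlap between the groups (against 27.1% of all genes). All 15 differences were below 0, with a median of -0.91. The count called lower was 11 without LA replicate 3, 5 without CLA replicate 2, and 6 without CLA replicate 1 or phenformin replicate 1 or 3. The promoter of Hspb1, the member with the largest difference, is shown because it carries the heat shock element (letters GAANNTTC, which read the same on both strands) in a pair of copies, in capitals, that begin 117 and 97 bases before the annotated start (chr5:135887669-135887968, plus strand, RefSeq on GRCm38.p6).

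Hspb1: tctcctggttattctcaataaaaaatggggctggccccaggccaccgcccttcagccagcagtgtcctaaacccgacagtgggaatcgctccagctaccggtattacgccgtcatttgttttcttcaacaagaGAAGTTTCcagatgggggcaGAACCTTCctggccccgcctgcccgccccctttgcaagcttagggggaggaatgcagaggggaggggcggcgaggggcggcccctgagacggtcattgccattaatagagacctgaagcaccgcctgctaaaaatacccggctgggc

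The letters GAANNTTC were found in 7 of the 12 list members with a promoter window and in 7.86% of all 32851 windows of 300 bases. Such a match describes the letters and is not evidence of binding. Hspb1, a small chaperone that guards actin filaments, lay at 12, 12.26 and 11.85 in CLA and at 8.65, 8.62 and 8.68 in phenformin. The phenformin arrays agreed closely and lay within the range of the LA arrays (9.05, 9.33 and 8.60). The difference was -3.39 ± 0.18, or 10.5-fold (adjusted p = 1.17e-05), and the second probe set gave -3.22. Hsph1, a nucleotide exchange factor of the same system, was at 10.91, 11.04 and 10.97 in CLA and 8.91, 9.18 and 8.90 in phenformin (-1.98 ± 0.24, adjusted p = 0.00175). Dnajb1, a cochaperone that hands unfolded proteins on, fell from 10.08, 10.37 and 10.22 to 8.57, 8.77 and 8.39, below each of the LA values (9.44, 9.30 and 8.87), with a difference of -1.65 ± 0.17 (adjusted p = 0.000476).

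Subunits of the proteasome, which degrades tagged proteins, had a median difference of -0.55. All 27 measured subunits had differences below 0 and 22 of them did not overlap (against 27.1% of all genes), yet 0 were called. At an unadjusted p under 0.05 the count was 15. With the LA arrays left out of the fit 14 were called lower, 14 after quantile normalization, and 16 without LA replicate 3, which was the array with the lowest proteasome median (10.68, against 11.41 and 11.54 on the other LA arrays). The subunit gene Psmb3 lay at 12.44, 12.20 and 11.88 in CLA and 11.44, 11.52 and 11.19 in phenformin (-0.79 ± 0.21, adjusted p = 0.0692).

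Targets of NRF2, the factor that switches on antioxidant enzymes, were lower where they were called: of 21 measured members 6 were called lower and 0 higher, with a median of -0.46. The count was 3 without CLA replicate 2 and 10 without LA replicate 3. The promoter of Srxn1 is shown because it holds the AP-1 letters TGANTCA (the same on both strands), in capitals, in copies that begin 102 and 45 bases before the start (chr2:152105274-152105573, plus strand). AP-1 letters overlap with the antioxidant response element that NRF2 binds.

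Srxn1: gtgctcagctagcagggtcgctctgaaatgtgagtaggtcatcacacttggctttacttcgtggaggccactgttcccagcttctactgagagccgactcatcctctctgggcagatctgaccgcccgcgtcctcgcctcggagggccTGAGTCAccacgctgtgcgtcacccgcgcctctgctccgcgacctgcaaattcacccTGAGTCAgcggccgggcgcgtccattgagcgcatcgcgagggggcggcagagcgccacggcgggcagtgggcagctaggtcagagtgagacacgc

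TGANTCA was found in 3 of the 17 members with a window and in 7.81% of all windows. Srxn1, the sulfiredoxin that repairs oxidized peroxiredoxins, lay at 11.57, 11.64 and 12.04 in CLA and at 8.92, 8.79 and 9.08 in phenformin, a difference of -2.82 ± 0.27 (adjusted p = 0.000371). The thioredoxin reductase gene Txnrd1 was at 10.27, 10.22 and 10.81 and 8.92, 9.19 and 9.17 (-1.34 ± 0.21, adjusted p = 0.00589), and stood at -0.89 as the mean of its probe sets. Osgin1, a growth inhibitor induced by oxidative stress, differed by -1.30 ± 0.18 (adjusted p = 0.00347). Hmox1, the heme oxygenase, departed from these: it was at 12.39, 12.54 and 12.93 in CLA and 12.33, 12.21 and 12.63 in phenformin, the groups overlapped, and the 95% interval of the difference was -0.59 to 0.13 (adjusted p = 0.53). Both sets of Hmox1 values lay above LA (8.79, 8.97 and 8.83).

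**Figure D3:**
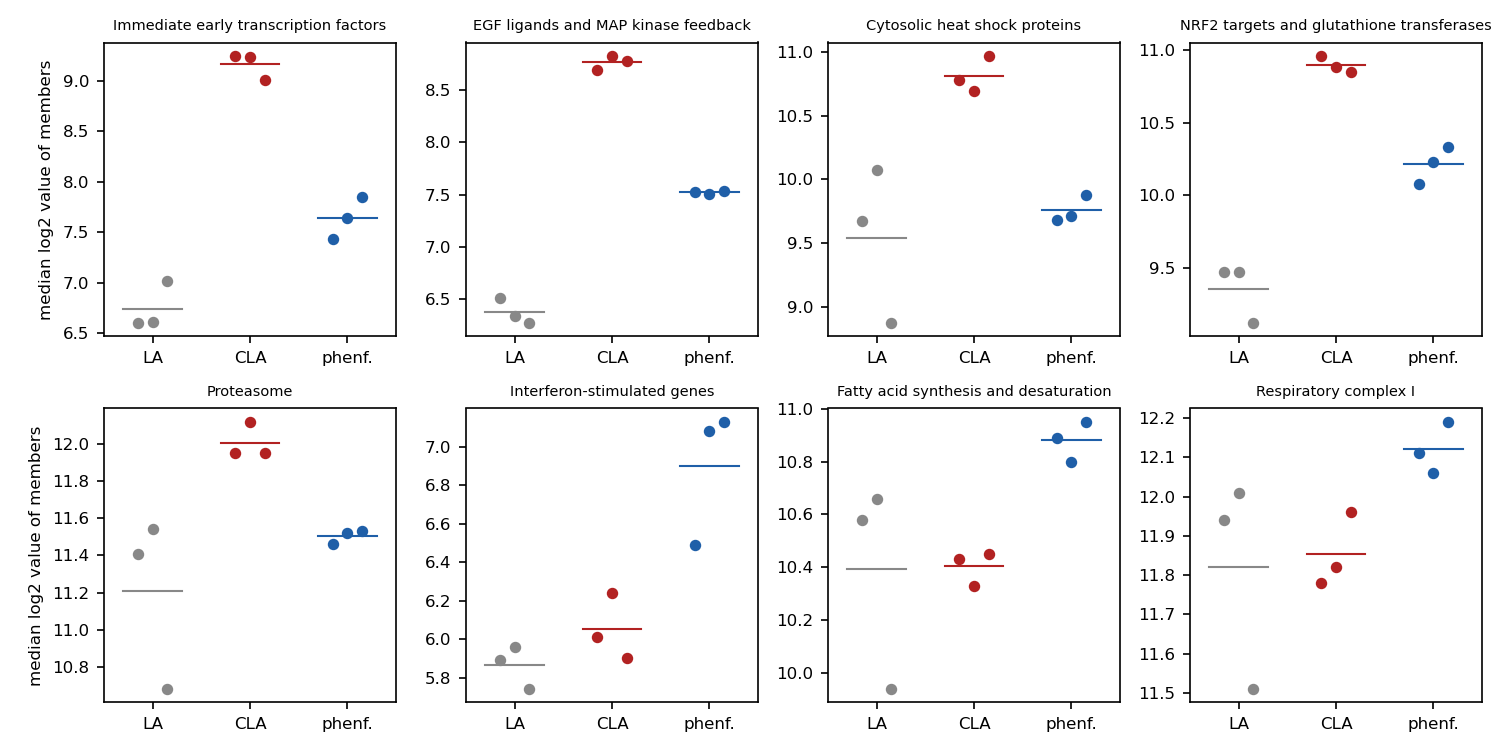
Median log2 value of the measured members of 8 gene lists on each array (points) with the group mean (lines), each panel on its own scale that does not start at 0. The early gene, MAP kinase feedback, heat shock, NRF2 and proteasome medians are lower on all phenformin arrays than on any CLA array, and the interferon, fatty acid synthesis and complex I medians are higher.

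Inflammatory lists differed in their calls. Of 20 measured chemokines 4 were called lower and 0 higher (median -0.18), and of 23 cytokines and NF-kB feedback genes 6 were called lower and 0 higher (median -0.28). The second count was 2 without CLA replicate 1, 3 without CLA replicate 2, and 2 without phenformin replicate 1 or 3. Ccl2, the chemokine that draws monocytes, lay at 11.46, 11.36 and 11.39 in CLA and at 9.65, 9.65 and 9.68 in phenformin. Its replicates differed little within a group and both groups stood above LA (7.04, 6.90 and 6.90), with a difference of -1.75 ± 0.10 between them (adjusted p = 1.61e-05). Cxcl2, a neutrophil chemokine, was at 6.14, 6.87 and 5.95 in CLA and not above background in phenformin (3.62, 3.52 and 3.42), so that it was at least 5.6-fold lower there (adjusted p = 7.97e-05).

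Ccl7, a second monocyte chemokine, differed by -1.02 ± 0.16 and the interleukin 6 family cytokine Lif by -1.11 ± 0.18 (adjusted p = 0.00528 and 0.00728), with Lif at -0.72 as the mean of its probe sets. Rela, the p65 subunit of NF-kB, was at 10.97, 11.14 and 10.93 in CLA and 10.20, 10.07 and 10.20 in phenformin (-0.86 ± 0.13, adjusted p = 0.00483). Of 10 measured acute phase genes 2 were called higher and 0 lower, with a median of -0.12. The higher count was 0 without CLA replicate 1 or 2 or any phenformin replicate, and 1 without LA replicate 1 or 2 or after quantile normalization. These 2 were the orosomucoid genes Orm1 and Orm2, near-identical copies whose signals may not be separate. Orm1 was at 10.40, 10.25 and 10.78 in CLA and 11.34, 11.09 and 11.35 in phenformin (0.79 ± 0.18, adjusted p = 0.0387), and Orm2 was at 6.72, 5.99 and 7.46 and 8.12, 8.14 and 8.27 (1.45 ± 0.33, adjusted p = 0.0322). Where an array that cost the call was left out, the adjusted p was 0.0598 to 0.154 for Orm1 and 0.0514 to 0.118 for Orm2. The acute phase gene Saa3 lay at 12.83, 12.77 and 12.81 in CLA and 12.52, 12.60 and 12.58 in phenformin, both above LA (5.44, 5.47 and 6.49). That gap was not called (-0.24 ± 0.23, adjusted p = 0.671), and its 95% interval of -0.76 to 0.28 lay within a 2-fold difference. The Saa3 groups did not overlap, and the SE includes the wider spread of the LA arrays. The lowest adjusted p of any alternative was 0.175. Il6, a cytokine of the acute phase, was at 5.78, 5.67 and 6.54 and 5.58, 6.25 and 6.11, overlapping (-0.02 ± 0.31, 95% interval -0.71 to 0.68, adjusted p = 0.988). Cd14, a coreceptor for lipopolysaccharide, was the 1 member of the macrophage list that was called (-1.44 ± 0.20, adjusted p = 0.00347), and the other 11 differed by -0.38 to 0.09.

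In prostaglandin synthesis 1 of 9 measured enzymes was called (against 6.3% of all genes). Ptgs2, the inducible cyclooxygenase, lay at 10.15, 10.07 and 9.70 in CLA and 7.01, 7.41 and 6.68 in phenformin, a 7.7-fold difference (-2.95 ± 0.20, adjusted p = 4.95e-05). The phenformin values stood between those of CLA and LA, where it was not above background (3.19, 2.84 and 3.13). Ptges, the synthase that makes prostaglandin E2 from the product of Ptgs2, was at 9.96, 10.10 and 10.03 in CLA and 9.55, 9.54 and 9.69 in phenformin, without overlap and without a call (-0.44 ± 0.15, adjusted p = 0.158). Its 2 other probe sets were called lower, at -1.05 and -0.90, so its probe sets disagreed. Of 12 genes for prostanoid receptors, transport and breakdown 0 were called, 3 had an unadjusted p under 0.05, and the median was -0.25.

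Of 18 measured matrix and plasminogen proteases and inhibitors 3 were called lower and 1 higher, with a median of -0.10. The lower count was 2 without CLA replicate 1 or 2 or phenformin replicate 1 or 2, and the higher count was 0 without CLA replicate 1 or phenformin replicate 2 or 3. Plaur, the urokinase receptor, was at 7.58, 7.72 and 7.94 in CLA and 5.91, 5.97 and 5.53 in phenformin (-1.94 ± 0.19, adjusted p = 0.000377). The collagenase gene Mmp13 was at 9.65, 9.21 and 9.82 and 8.34, 8.80 and 8.27 (-1.09 ± 0.18, adjusted p = 0.00795), above LA in both (4.13, 4.19 and 4.19). The protease gene Mmp11 rose from 9.33, 9.55 and 9.24 to 9.98, 9.95 and 10.20 (0.67 ± 0.13, adjusted p = 0.0168, and 0.0511 to 0.0741 where the call was lost), and the remaining call, Serpinb2, was not above background in either group. From other lists, Thbs1, a matrix protein that activates TGF-beta, differed by -1.58 ± 0.15 and Cd44, the hyaluronan receptor, by -1.20 ± 0.12 (adjusted p = 0.000334 and 0.000474), and 1 of the 3 other Cd44 probe sets was called lower. Over the 22 measured collagens and matrix proteins 2 were called lower and 0 higher (median -0.04), and 1 was called lower without CLA replicate 1 or 2, LA replicate 1 or any phenformin replicate.

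Genes of the smooth muscle type actin cytoskeleton, which contractile and fibroblast-like cells express, held 4 members called lower and 0 higher of 19 measured. In this list 18 differences were below 0 and 10 members did not overlap (against 27.1% of all genes), with a median of -0.35. The lower count was 0 without CLA replicate 1, 1 without CLA replicate 2 or phenformin replicate 1 or 2, 2 without LA replicate 1, and 8 without LA replicate 3. Ccn1, a matricellular protein, was at 9.03, 9.09 and 9.84 in CLA and 7.18, 7.82 and 8.49 in phenformin (-1.49 ± 0.30, adjusted p = 0.021), and all 3 of its other probe sets were called lower. Its call was lost without CLA replicate 1 or 2, without phenformin replicate 1 or 2 and with the LA arrays left out (adjusted p = 0.0521 to 0.0791). Ccn2, the connective tissue growth factor, was at 5.45, 5.59 and 4.56 and 3.85, 3.94 and 3.82 (-1.33 ± 0.23, adjusted p = 0.00915, and 0.0518 without CLA replicate 1).

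Interferon-stimulated genes were higher in phenformin. Of 17 measured members 7 were called higher and 0 lower, and 16 differences were above 0, with a median of 0.59. The count was 3 without CLA replicate 1 or 2, 4 without CLA replicate 3 or phenformin replicate 3, and 2 without phenformin replicate 2. These genes carry interferon-stimulated response elements, here searched on both strands as 2 copies of GAAA with any 2 bases between them, and Gbp2 is shown for a copy on the minus strand, in capitals, that begins 59 bases before the start (chr3:142620413-142620712, plus strand).

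Gbp2: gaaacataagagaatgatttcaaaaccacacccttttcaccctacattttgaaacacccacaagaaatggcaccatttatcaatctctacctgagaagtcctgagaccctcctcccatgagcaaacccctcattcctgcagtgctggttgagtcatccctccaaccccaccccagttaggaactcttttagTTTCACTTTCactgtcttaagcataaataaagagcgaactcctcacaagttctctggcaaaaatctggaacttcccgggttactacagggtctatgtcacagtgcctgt

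The letters were found in 8 of the 14 members with a window and in 3.44% of all windows. Gbp2, a guanylate-binding protein of antimicrobial defence, lay at 7.76, 7.94 and 7.91 in CLA and 8.82, 9.04 and 9.22 in phenformin (1.16 ± 0.13, adjusted p = 0.00107). CLA and LA values (8.18, 7.96 and 7.95) were close for this gene. Usp18, which removes ISG15 from proteins and restrains the interferon receptor, was at 5.97, 5.96 and 6.18 in CLA and 7.21, 7.69 and 7.58 in phenformin (1.45 ± 0.15, adjusted p = 0.000476). Oasl2, an antiviral protein of the oligoadenylate synthetase family, was at 5.40, 5.02 and 5.40 and 6.16, 6.51 and 7.13 (1.32 ± 0.26, adjusted p = 0.0168), and its call was lost without CLA replicate 1 or 2 or phenformin replicate 2 (adjusted p = 0.0585 to 0.0824).

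Part of the integrated stress response was higher in phenformin. This pathway halts translation and raises the factor ATF4, which turns on a set of survival and death genes. Of 16 measured members 4 were called higher and 1 lower, with a median of 0.38. The C/EBP-ATF element that ATF4 binds, searched as TGATGCAA on both strands, was found in 4 of the 15 members with a window and in 0.895% of all windows. The promoters of Chac1 and Fgf21, both called higher, are shown for its place on the minus strand of the sequences, in capitals, beginning 193 and 139 bases before the start (chr2:119350992-119351291, plus strand, and chr7:45615441-45615740, minus strand).

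Chac1: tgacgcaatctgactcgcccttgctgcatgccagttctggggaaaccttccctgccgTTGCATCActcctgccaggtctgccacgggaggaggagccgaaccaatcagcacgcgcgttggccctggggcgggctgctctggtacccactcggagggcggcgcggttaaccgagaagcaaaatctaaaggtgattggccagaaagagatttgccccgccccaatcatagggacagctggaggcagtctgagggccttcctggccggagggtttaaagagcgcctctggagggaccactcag
Fgf21: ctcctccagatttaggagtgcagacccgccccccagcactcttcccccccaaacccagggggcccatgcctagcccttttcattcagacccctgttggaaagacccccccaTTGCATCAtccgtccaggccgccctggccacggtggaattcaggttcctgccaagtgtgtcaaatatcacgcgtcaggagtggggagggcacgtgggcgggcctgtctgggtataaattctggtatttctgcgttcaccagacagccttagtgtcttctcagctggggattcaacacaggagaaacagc

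Chac1, which breaks down glutathione, lay at 9.51, 9.51 and 9.51 in CLA and 10.81, 10.88 and 10.91 in phenformin, and the groups were far apart (1.36 ± 0.10, adjusted p = 0.000129). Ddit3, the factor also called CHOP, was at 11.39, 11.36 and 11.38 and 12.51, 12.62 and 12.90 (1.30 ± 0.12, adjusted p = 0.000314). The hormone gene Fgf21 was at 5.96, 6.31 and 5.79 and 6.73, 7.30 and 7.35 (1.10 ± 0.18, adjusted p = 0.00778). For all 3, CLA arrays in turn stood above LA, which lay at 9.61, 9.75 and 9.68 for Ddit3. Trib3, a pseudokinase that binds ATF4, was at 10.50, 10.61 and 10.79 and 11.60, 11.76 and 11.90 (1.12 ± 0.23, adjusted p = 0.0219), a call that was lost without CLA replicate 1 or 2 or any phenformin replicate (adjusted p = 0.0543 to 0.101).

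Atf3 ran the other way. This factor, an ATF4 target that also answers to MAP kinases, was at 10.53, 10.70 and 10.82 in CLA and 9.37, 9.33 and 9.78 in phenformin (-1.19 ± 0.15, adjusted p = 0.00233). Atf4 itself was at 12.33, 12.50 and 12.37 and 12.71, 12.74 and 12.73 (0.33 ± 0.12, adjusted p = 0.196), and Asns, the asparagine synthetase, at 12.19, 12.15 and 12.14 and 12.39, 12.50 and 12.36 (0.26 ± 0.14, adjusted p = 0.415). Neither of the last pair was called, although their groups did not overlap. Gadd45a, a growth arrest gene of DNA damage and stress, rose from 10.58, 10.56 and 10.68 to 11.38, 11.64 and 11.79 (1.0 ± 0.12, adjusted p = 0.00182).

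Fat synthesis genes were higher in phenformin than in CLA. Of 19 measured genes of fatty acid synthesis and desaturation 7 were called higher and 0 lower, 18 differences were above 0, and the median was 0.40. Thrsp, a regulator of lipogenesis, lay at 10.44, 10.30 and 10.39 in CLA, 12.71, 12.70 and 12.52 in phenformin and 11.85, 12.18 and 11.95 in LA, so that phenformin arrays were the highest of the series. It differed by 2.27 ± 0.12 between the treatments (adjusted p = 1.22e-05), with 1 of 2 other probe sets called higher. Mlxipl, which encodes the glucose-sensing factor ChREBP, was at 6.52, 6.26 and 5.83 in CLA and 7.61, 7.61 and 7.48 in phenformin (1.36 ± 0.18, adjusted p = 0.00276). The fatty acid synthase gene Fasn was at 12.06, 11.74 and 12.01 and 13.13, 12.65 and 12.75 (0.91 ± 0.20, adjusted p = 0.0273), a call that was lost without CLA replicate 1 or 2 or any phenformin replicate (adjusted p = 0.0593 to 0.117). Scd1, the main desaturase, was at 14.31, 14.31 and 14.31 and 14.46, 14.37 and 14.34, and the 95% interval of its difference was -0.38 to 0.53 (adjusted p = 0.901). It lay near the highest values of these arrays (14.54 to 14.72), so its difference may be understated.

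Triglyceride assembly held 4 members called higher and 2 called lower of 12 measured. The higher count was 1 without CLA replicate 1 or 2 or phenformin replicate 1 or 2, and 2 without CLA replicate 3 or phenformin replicate 3. The lower count was 1 without CLA replicate 2 or phenformin replicate 2 or 3. Dgat2, which adds the last acyl chain, lay at 11.52, 11.41 and 11.55 in CLA and 12.86, 12.73 and 12.69 in phenformin (1.27 ± 0.20, adjusted p = 0.00625). Lpin2, a phosphatidate phosphatase, moved down (-1.09 ± 0.14, adjusted p = 0.0024, and -0.69 as the mean of its probe sets). On the lipid droplet, Pnpla3, a lipase-like protein, was at 6.56, 6.54 and 6.16 in CLA, 8.26, 8.23 and 8.11 in phenformin and 10.26, 10.26 and 9.79 in LA, 3 separate ranges (1.78 ± 0.16, adjusted p = 0.000267). The lipases Mgll and Pnpla2 differed by 0.99 ± 0.14 and 0.08 ± 0.18 (adjusted p = 0.0033 and 0.867), so that of these only the first was called. Angptl4, a secreted inhibitor of lipoprotein lipase, fell from 12.58, 12.32 and 12.45 to 10.22, 10.28 and 10.30 (-2.19 ± 0.17, adjusted p = 0.000155).

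Both main glucose transporters of the adipocyte changed, in opposite directions. Slc2a4, the insulin-regulated transporter GLUT4, lay at 8.71, 9.05 and 8.62 in CLA and 10.59, 10.33 and 10.44 in phenformin (1.66 ± 0.19, adjusted p = 0.0011). Slc2a1, the basal transporter GLUT1, lay at 11.98, 12.14 and 11.62 and 9.71, 10.12 and 9.91 (-2.0 ± 0.32, adjusted p = 0.00623). Neither pair of groups overlapped, and for both genes all other probe sets were called in the same direction. Pfkfb3, whose product drives glycolysis, rose from 8.55, 7.77 and 8.91 to 9.92, 9.82 and 10.40 (1.64 ± 0.26, adjusted p = 0.0058), while its second probe set, at 0.64, was not called. The 18 measured genes of glucose transport and glycolysis had a median of 0.01, with 2 called in each direction, and 1 called lower when any 1 CLA replicate or phenformin replicate 1 or 2 was left out.

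Of 21 measured genes of insulin and IGF signalling 2 were called higher and 0 lower (against 3.95% and 2.35% of all genes), with a median of 0.02. The count was 0 without CLA replicate 1 or any phenformin replicate and 1 without CLA replicate 2. Tbc1d4, the Akt substrate that holds GLUT4 inside the cell, was at 7.33, 6.84 and 7.44 in CLA and 8.17, 8.16 and 8.15 in phenformin (0.96 ± 0.19, adjusted p = 0.0175, and 0.0517 to 0.0676 without CLA replicate 1 or 2 or any phenformin replicate). The growth factor gene Igf1 was at 7.97, 8.38 and 7.93 and 8.89, 8.73 and 8.82 (0.72 ± 0.15, adjusted p = 0.0252). Its adjusted p was 0.116 after quantile normalization and 0.0593 to 0.112 without CLA replicate 1 or 3 or any phenformin replicate.

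**Figure D4:**
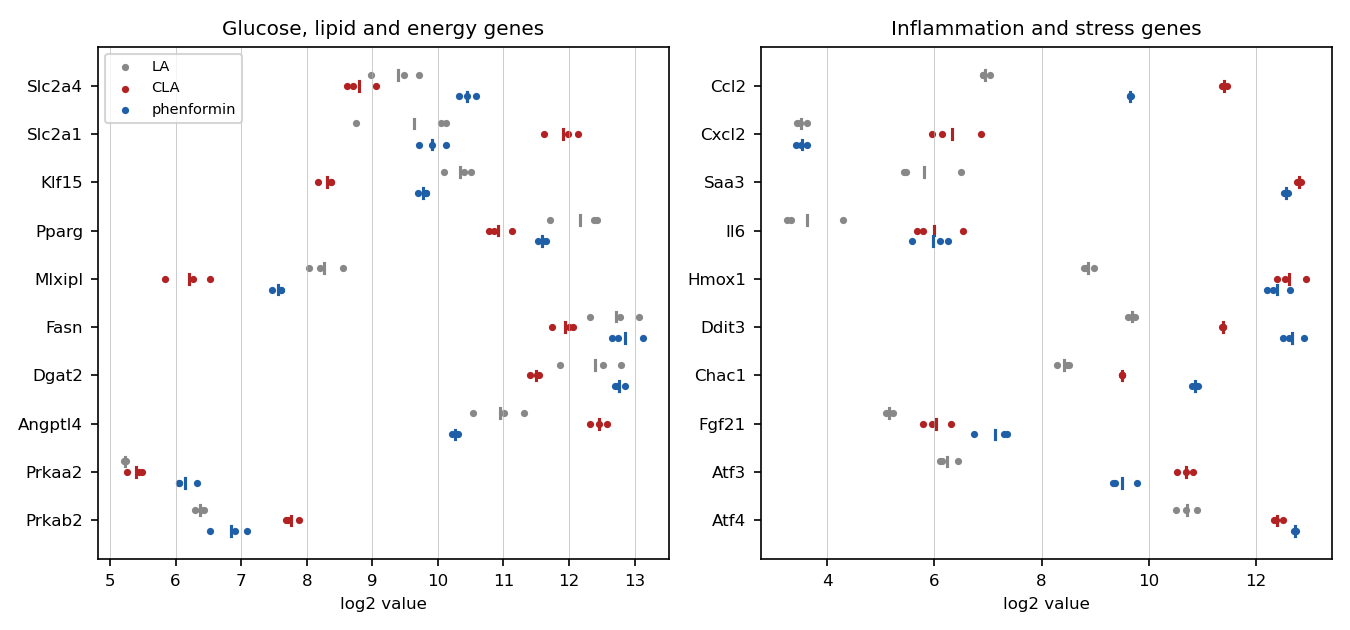
Log2 value on each array (points) and group mean (vertical ticks) for 10 genes of glucose, lipid and energy metabolism and 10 genes of inflammation and stress in LA (grey), CLA (red) and phenformin (blue). Slc2a4, Klf15 and Dgat2 are higher and Slc2a1 and Angptl4 lower in phenformin than in CLA, while the Il6 and Hmox1 points of both treatments overlap.

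Regulators of the adipocyte programme were mixed, with 1 of 14 measured called higher and 2 lower (against 3.95% and 2.35% of all genes). Without LA replicate 3 it was 2 higher, and without phenformin replicate 2 it was 1 lower. Klf15, a factor of the mature adipocyte, was at 8.38, 8.38 and 8.18 in CLA, 9.82, 9.81 and 9.70 in phenformin and 10.50, 10.40 and 10.10 in LA (1.47 ± 0.13, adjusted p = 0.000252). Klf5, a factor of early differentiation, fell from 9.72, 10.28 and 9.83 to 7.71, 7.45 and 7.79 (-2.29 ± 0.20, adjusted p = 0.000252), but its 2 other probe sets, at -0.69 and -0.18, were not called. Pparg, the master regulator, was at 10.78, 10.86 and 11.13 in CLA and 11.53, 11.64 and 11.61 in phenformin and missed the threshold (0.67 ± 0.19, adjusted p = 0.0781). It was called in 5 of the alternatives. Adipoq and Cebpa differed by 0.07 ± 0.18 and 0.23 ± 0.19, with 95% intervals of -0.34 to 0.48 and -0.20 to 0.66 (adjusted p = 0.894 and 0.606). Adipoq lay near the top of the scale, so its difference may be understated. The leptin gene Lep was not above background in CLA, and Pck1, an enzyme of glyceroneogenesis, was at 4.65, 4.54 and 4.77 and 4.88, 4.95 and 4.83, against 8.29, 8.14 and 6.67 in LA (adjusted p = 0.779 and 0.793). The Pck1 values of CLA and phenformin did not overlap, and the spread in its test includes the wider one of the LA arrays.

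Of 12 measured AMPK subunits and upstream kinases 1 was called in each direction, where 3.95% of all genes were called higher and 2.35% lower. Prkaa2, a catalytic subunit, was called higher (5.25, 5.45 and 5.49 in CLA, 6.05, 6.32 and 6.05 in phenformin, 0.75 ± 0.12, adjusted p = 0.00631). The regulatory subunit Prkab2 was called lower (7.71, 7.88 and 7.68 and 6.91, 7.09 and 6.52, -0.92 ± 0.15, adjusted p = 0.00704). Prkaa1, the other catalytic subunit, spread widely within CLA, at 7.46, 6.59 and 8.58, and overlapped with phenformin at 7.70, 8.23 and 8.74 (0.68 ± 0.50, adjusted p = 0.549), so its interval of -0.43 to 1.79 allows more than a 2-fold rise.

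Subunits of complex I, the target of biguanides, all leaned upward in phenformin without a call. All 36 measured subunits and assembly factors had differences above 0, with a median of 0.24. Of these 21 were without overlap (against 27.1% of all genes), and 5 had an unadjusted p under 0.05. At most 3 were called in any alternative, without LA replicate 3. Ndufa6, with the smallest p of the list, lay at 11.49, 11.57 and 11.61 in CLA and 11.99, 11.95 and 12.04 in phenformin (0.44 ± 0.13, adjusted p = 0.0938). Complexes II to V and the citric acid cycle had 0 calls among 35 and 18 members and medians of 0.21 and 0.22, with 5 and 2 members at an unadjusted p under 0.05.

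The list of mitochondrial biogenesis and thermogenesis held 4 members called higher of 17 measured and 0 lower, with a median of 0.15. Ppargc1a, the coactivator that drives mitochondrial biogenesis, was at 6.06, 5.44 and 5.95 in CLA and 7.50, 8.0 and 7.57 in phenformin, where it also exceeded LA (6.50, 6.42 and 6.38). The difference was 1.87 ± 0.18 (adjusted p = 0.0004), and all 5 probe sets were called higher. Cox7a1, a subunit of cytochrome oxidase, rose by 1.24 ± 0.19 (adjusted p = 0.00595). Nrf1, a factor for nuclear genes of the respiratory chain, was at 7.13, 7.20 and 7.22 and 7.79, 7.88 and 8.07 (0.73 ± 0.12, adjusted p = 0.00875), with 1 of its 3 other probe sets called higher and a mean over probe sets of 0.40. Breakdown of branched-chain amino acids, a mitochondrial pathway of the mature adipocyte, held 4 members called higher of 17 measured and 0 lower (median 0.31), and 2 after quantile normalization. Dbt, of the dehydrogenase that commits these acids to breakdown, was at 9.52, 9.56 and 9.62 and 10.61, 10.73 and 10.29 (0.97 ± 0.13, adjusted p = 0.00281).

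The rises outside these groups were varied. Taf15, whose difference was the largest (adjusted p = 5.77e-05), lay at 6.60, 5.73 and 6.19 in CLA and 9.20, 9.30 and 9.01 in phenformin, but its second probe set, at 0.80, was not called. Maf, a bZIP transcription factor, was at 8.77, 7.72 and 8.66 and 10.67, 11 and 10.51 (2.34 ± 0.25, adjusted p = 0.000741), with 2 of 5 other probe sets called higher. The coreceptor gene Klb, through which FGF21 signals, was at 7.61, 7.71 and 7.80 and 9.55, 9.69 and 9.59 (1.90 ± 0.16, adjusted p = 0.000186). Its second probe set gave -0.02, so that the 2 disagreed. Rgs2, a regulator of G protein signalling, and Dbp, an output gene of the circadian clock, rose by 1.96 ± 0.28 and 1.80 ± 0.24 (adjusted p = 0.00362 and 0.0024). Cdkn1b, the cyclin-dependent kinase inhibitor p27, was at 8.22, 7.51 and 8.22 and 9.14, 9.51 and 9.45 (1.38 ± 0.19, adjusted p = 0.00305), and its second probe set, at 0.27, was not called.

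**Figure D5:**
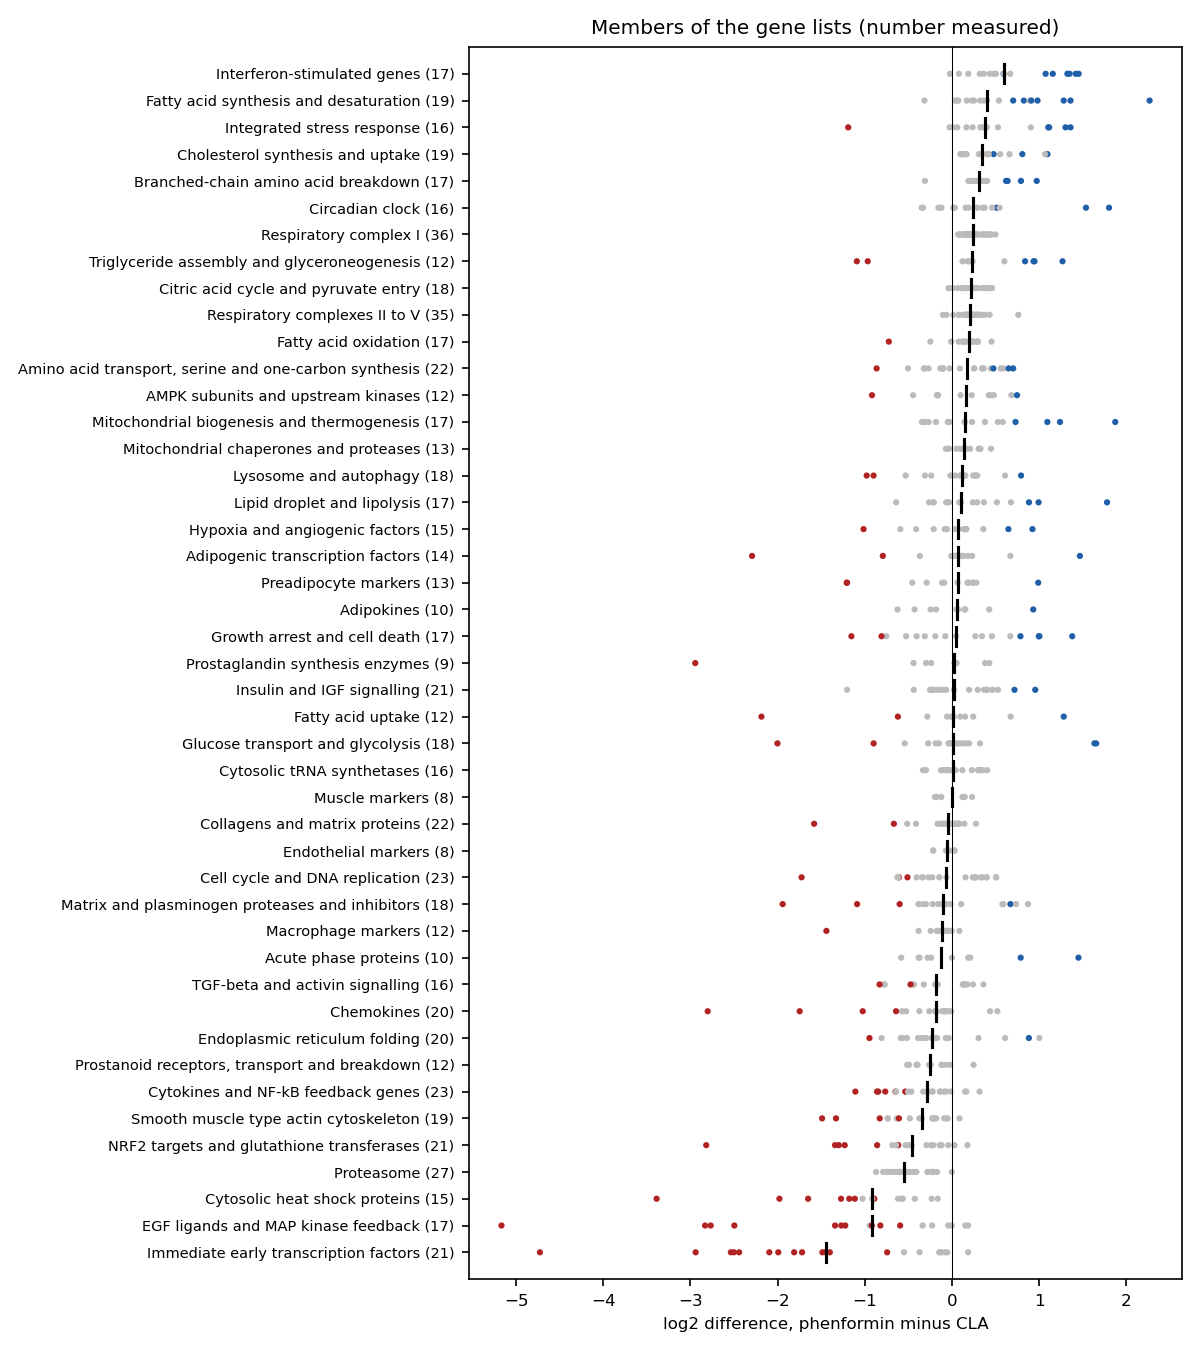
Log2 difference, phenformin minus CLA, of each measured member of 45 gene lists (points, blue where called higher, red where called lower, grey where not called) with the list median (black ticks). Lists of early genes, MAP kinase feedback and heat shock sit farthest to the left and interferon-stimulated and fatty acid synthesis genes farthest to the right, while all 27 proteasome and all 36 complex I members lie on 1 side of 0 in grey.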

How the data were processed

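Each sample was read on 1 Affymetrix mouse array. The authors deposited RMA values on the log2 scale, 1 for each probe set, computed in R 2.9.0 according to the submitters' processing notes. The authors' deposited table for this comparison holds log2 fold changes, a moderated t and log odds score and p-values, per the file headers. No source used here names its limma version. An adjusted p under 0.05 was held by 2038 of 45101 probe sets in the authors' deposited table, and refitting with the controls kept in called the same 2038, with a largest gap in log2 fold change of 4.6e-08.

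Of 45101 probe sets, 64 controls were left out. All 9 arrays, in 3 groups, entered 1 limma model (version 3.58.1 under R 4.3.3, functions lmFit and eBayes), from which the two-sided contrast was taken, and p-values were adjusted by Benjamini-Hochberg across 45037 probe sets. The platform annotation gave 34945 probe sets 1 symbol, 932 several and 9160 none; only the first were named, and 34741 of them were found by Entrez ID in the RefSeq gene table, with 0 symbols changed. Each of 18193 genes was represented by its brightest probe set, by the mean of all 9 arrays. Not above background means at or under the 95th percentile of 27 control probe sets (3.68 to 4.20 per array) on every array of a group. Of 828 entries in 45 gene lists, 778 were found among the measured genes (28 by an older symbol), and the others, Gdf15 among them, are not analysed here. The groups compared, the members and the lists were chosen with earlier results of these data known. Genes were named from those a rule allowed, not all of which are named: the 15 largest rises and falls among called genes without overlap, from each list the 3 or fewer members of lowest adjusted p, and a set of genes always considered. An exact two-sided permutation test of 3 against 3 arrays cannot go below 0.1, so limma, which shares the spread across genes, was used. The number of arrays limits the precision. The steps were tested on simulated data. Promoters are RefSeq windows of 250 bases before to 50 after the start. Alternatives were another set of arrays in the fit, array weights, an intensity trend, filters, rescaling, means of probe sets, the replicate number as a block and each array left out. Tables and plots were made with Python 3.11.15, pandas 2.3.3 and matplotlib 3.10.9.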

Additional observations from a re-analysis of the deposited data

How the results depend on the processing

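Array weights gave 4541 called probe sets (2906 higher in phenformin, 1635 lower) and 2428 called genes (1572 and 856), and a minimum of 2-fold left 643 probe sets (355 and 288) and 333 genes (173 and 160). Leaving out each array in turn gave 820 to 3085 probe sets (428 to 1943 higher, 392 to 1142 lower) and 463 to 1718 genes (233 to 1084 higher, 227 to 634 lower), with 13450 to 14401 genes whose interval lay within 2-fold. The fewest probe sets were called without phenformin replicate 2, where 801 of the 820 were among the 2048 called over all arrays, and the most without LA replicate 3, where 2047 of the 2048 were called again. Fits of the 6 arrays alone (2266 probe sets), without dim probe sets (2157), with an intensity trend (1837), after median centring (1986) and after quantile normalization (2240), and genes as means of their probe sets (1511 genes), kept the totals within 1.5 times. Same-numbered CLA and phenformin arrays deviated from their group means with correlations of 0.29, 0.09 and 0.58. CLA replicates 1 and 3 correlated best with their own number, and CLA replicate 2 with phenformin replicate 1 (0.39). CLA replicate 3 against phenformin replicate 1 gave -0.53, and CLA replicates 1 and 2 against phenformin replicate 3 gave -0.38 and -0.37. For pyruvate carboxylase, the gap between probe sets of both transcript ends fell with the number. It was 4.55, 4.2 and 3.33 in CLA and 4.5, 4.03 and 3.3 in phenformin. Whether same-numbered arrays shared a batch was not tested, and the main fit did not pair them. With the replicate number as a block, 1761 probe sets (1093 higher, 668 lower) and 962 genes (591 and 371) were called, and 14137 genes lay within 2-fold. Of the 81 called genes named in the text, 67 were called under every alternative that tested them (at most 17), and the other 14 kept their direction. Of these, Fasn, Trib3, Oasl2, Per3, Abca1, Mmp11, Ccn2 and Tbc1d4 lost the call only where a CLA or phenformin array was left out. Orm1, Serpinb2 and Igf1 also lost it with the block, Orm2 and Igf1 after quantile normalization, Orm1 and Orm2 without an LA array, Ccn1 in the fit of 6 arrays, and Cpt1a only over means of probe sets. Of the 21 named genes that were not called, 5 were called under at least 1 alternative (Psmb3, Pparg, Ndufa6, Fabp4 and Ptges). The sign turned for 6 genes that were not called: Il6 was at 0.07 with array weights, 0.02 after median centring and -0.18 to 0.26 with an array left out, and Pck1 was at -0.0 over means of probe sets. With an array left out, Fos lay at -0.28 to 0.25, Lpl at -0.01 to 0.02, Nr4a1 at -0.0 to 0.32 and Pnpla2 at -0.03 to 0.28. The causes of these shifts were not tested. Precision was limited by 3 arrays per group, and genes not above background in a group have only a bound there.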

Other observations

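The cholesterol list, of synthesis and uptake genes with the exporter genes Abca1 and Abcg1, leaned the same way as that of fat synthesis. All 19 measured members of the cholesterol list had differences above 0, with a median of 0.34. Of these 12 were without overlap (against 27.1% of all genes) and 3 were called higher. The count was 0 without phenformin replicate 1 or 2, 1 without CLA replicate 2 and 6 without LA replicate 3. Abca1, the exporter of cellular cholesterol, lay at 10.87, 10.59 and 10.78 in CLA and 11.96, 11.97 and 11.60 in phenformin (1.10 ± 0.19, adjusted p = 0.0109), a call lost without CLA replicate 2 or phenformin replicate 1 or 2 (adjusted p = 0.0503 to 0.0563). Clock genes held 3 members called higher of 16 measured. Per3, a period gene, was at 6.15, 5.96 and 6.17 in CLA and 7.52, 7.71 and 7.66 in phenformin (1.54 ± 0.28, adjusted p = 0.012), a call lost without CLA replicate 1 or 2 or phenformin replicate 2 (adjusted p = 0.0518 to 0.0592), and none of its 5 other probe sets was called. The clock count was 1 without CLA replicate 1 or 2 or phenformin replicate 2.

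Of 20 measured folding genes of the endoplasmic reticulum 16 had differences below 0, with a median of -0.23. The groups did not overlap for 12 of the 20 (against 27.1% of all genes). In each direction 1 was called, where 3.95% of all genes were called higher and 2.35% lower. Herpud1, of the machinery that returns misfolded proteins to the cytosol, rose from 9.77, 9.80 and 10.22 to 10.66, 10.80 and 10.97 (0.88 ± 0.14, adjusted p = 0.00714), and Creld2, a disulfide isomerase induced by the unfolded protein response, fell from 9.18, 9.07 and 9.33 to 8.09, 8.34 and 8.31 (-0.95 ± 0.15, adjusted p = 0.00705). Of 18 measured genes of the lysosome and autophagy 1 was called higher and 2 lower (against 3.95% and 2.35% of all genes), with a median of 0.12. The lower count was 1 without CLA replicate 2 or phenformin replicate 1 or 2, and 3 without phenformin replicate 3. The lysosomal calcium channel gene Mcoln1 was higher in phenformin (0.79 ± 0.13) and Wdr45, of the autophagy machinery, lower (-0.90 ± 0.13), with adjusted p = 0.00769 and 0.00469. Cytosolic transfer RNA synthetases, some of which are ATF4 targets, had 0 calls among 16 members, 2 with an unadjusted p under 0.05, and a median of 0.01.

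In fatty acid oxidation 1 of 17 measured genes was called lower and 0 higher (against 2.35% and 3.95% of all genes). The list had 14 differences above 0 and a median of 0.19. The call was that of Cpt1a, the carnitine acyltransferase of the outer mitochondrial membrane, at 8.77, 8.57 and 8.87 in CLA and 7.99, 7.98 and 8.07 in phenformin (-0.72 ± 0.12, adjusted p = 0.00796), and it was lost over the mean of its probe sets (-0.48, adjusted p = 0.161). Fatty acid uptake held 1 member called higher and 2 lower of 12, and 1 lower without CLA replicate 1 or 2 or phenformin replicate 1 or 2. Acsl3, an acyl-CoA synthetase, rose from 8.38, 8.14 and 8.79 to 9.56, 9.88 and 9.72 (1.28 ± 0.17, adjusted p = 0.00253, and 0.77 as the mean of its probe sets). Growth arrest and cell death genes held 4 called higher and 2 lower of 17, with 13 without overlap (against 27.1% of all genes) and a median of 0.05. Without CLA replicate 1 or 2 or phenformin replicate 1 or 2 these counts were 2 and 1. Btg2, an antiproliferative gene, fell from 9.85, 10.04 and 9.76 to 8.69, 8.86 and 8.64 (-1.15 ± 0.13, adjusted p = 0.000841), and its other probe set was called lower too.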
